A study of Mus musculus with 4 samples.

Results

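Chemokine and homing receptors were examined in Tc1 and Tc9 cells recovered from mouse melanomas. The group held 8 genes, *Ccr2*, *Ccr4*, *Ccr7*, *Ccr8*, *Cxcr3*, *Cxcr4*, *Cx3cr1* and *S1pr1*, taken by gene symbol from the 15981 genes listed in at least 1 of the 4 expression tables. All 8 are genes for receptors on the cell surface.

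Chemokine receptors are membrane-spanning proteins that couple to inhibitory G proteins and let a leukocyte move along a gradient of its ligand. *S1pr1* encodes a related receptor that reads sphingosine-1-phosphate and lets T cells leave lymphoid tissue. In CD8+ T cells the set of receptors changes with differentiation: naive and central memory cells carry the lymph node receptor CCR7, type 1 effector cells carry CXCR3, and type 2 and regulatory T cells are known for CCR4 and CCR8.

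The cells were CD8+ T cells from Thy1.1+ Pmel-1 mice, which carry a transgenic T cell receptor for the melanoma antigen gp100, on a C57BL/6 background. By the paper's methods, naive cells were primed through CD3 and CD28, the Tc1 cells with IL-2 and the Tc9 cells with IL-4, TGF-β and an antibody to IFN-γ. Both were then kept in IL-2, for 5 days of culture in all. In some experiments Pmel-1 splenocytes were stimulated with gp100 peptide instead, and the priming used for these libraries is not stated. The Tc1 or Tc9 cells were injected intravenously into Thy1.2+ B6 mice with subcutaneous B16 tumors of 10 days. The figure legends name cyclophosphamide, dendritic cells and IL-2 as adjuvant treatments given to the recipients. Tc1 or Tc9 cells were sorted from the tumors 14 days after transfer, and RNA from several mice was pooled into 2 libraries per group. The recipients' own cells carry Thy1.2, and the ages of the mice were not given in the sources used here.

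The depth of the 4 libraries was 30822953 to 31927162 counts, summed for Tc9 replicate 2 and estimated for the others from counts and FPKM. At that depth 3 counts, taken as the smallest level that can be shown, came to 0.0940 to 0.0973 CPM (counts scaled to a common library size). The tables as used here covered unequal ranges of genes. Tc1 replicate 2, Tc9 replicate 1 and Tc9 replicate 2 listed all 8 receptors, and the table of Tc1 replicate 1 ended before the first of them (0 of 8). Each receptor was therefore compared between 1 Tc1 library and 2 Tc9 libraries, and an exact permutation test of 1 library against 2 cannot give a p below 0.333. The test used was edgeR's quasi-likelihood test fitted over 2613 genes, which takes the lone Tc1 library to vary as the Tc9 libraries do. Over the 1284 genes tested in all 4 libraries, the Tc1 libraries differed from each other by a median of 0.0752 on the log2 scale and the Tc9 libraries by 0.218. Over that range edgeR called 438 genes with all 4 libraries and 111 when Tc1 replicate 1 was left out.

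The labelled cell type was checked against its markers. *Cd8a* ranged from 19330 to 21622 expected counts over the 4 libraries and *Cd4* from 45 to 58. Of 8 CD8 T cell markers tested, all far above the floor in every library that covers them, 2 rose in Tc9 cells by edgeR, *Cd3e* by 0.73 (adjusted p = 0.0108) and *Cd3g* by 0.49 (0.00995) on the log2 scale. *Cd2* fell by 0.44 (0.0107) and *Cd5* by 0.61 (0.00397), and the other 4, *Cd8a* among them, did not pass. The 4 calls came from the 7 markers tested over 4 libraries, where 34.1% of all genes were called (17.4% higher and 16.7% lower). Of 20 myeloid markers, 15 were covered in the 3 libraries that list the receptors, and 10 of these stood at or under 3 counts in the Tc1 library and 12 in each Tc9 library. The 3 natural killer cell markers, *Klrb1c* and *Ncr1* among them, reached at most 8 counts in any library. In bulk RNA, fewer cells with a transcript and less of it per cell cannot be told apart.

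Of the 8 receptors, 3 rose in Tc9 cells (*Ccr4*, *Ccr8* and *Cx3cr1*), 1 fell (*Ccr2*) and 4 did not pass an adjusted p of 0.05 (*Ccr7*, *Cxcr3*, *Cxcr4* and *S1pr1*). The 4 called are 50.0% of the receptors, against 10.8% of all 2613 genes tested, 7.54% higher and 3.21% lower. For all 8 receptors both Tc9 libraries lay on the same side of the Tc1 library, which was also so for 82.0% of all genes tested (above it for 44.0% and below it for 37.9%). An unadjusted p under 0.05 was reached by 5 of the 8, *Ccr7* beside the 4 that were called, and by 26.7% of all genes. The median absolute log2 fold change was 1.55 over the receptors and 0.36 over all genes. The receptors, and the gene lists further on, were chosen with earlier results of these data known. Their shares beside those of all genes are therefore a description and no test of a group. All 8 passed the filter on low counts, 2 of them, *Cx3cr1* and *Ccr2*, through the group in which they are high. The levels of each receptor by library are plotted on a common FPKM scale (fragments scaled by transcript length and library size), which allows genes to be compared with each other.

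**Figure D1:**
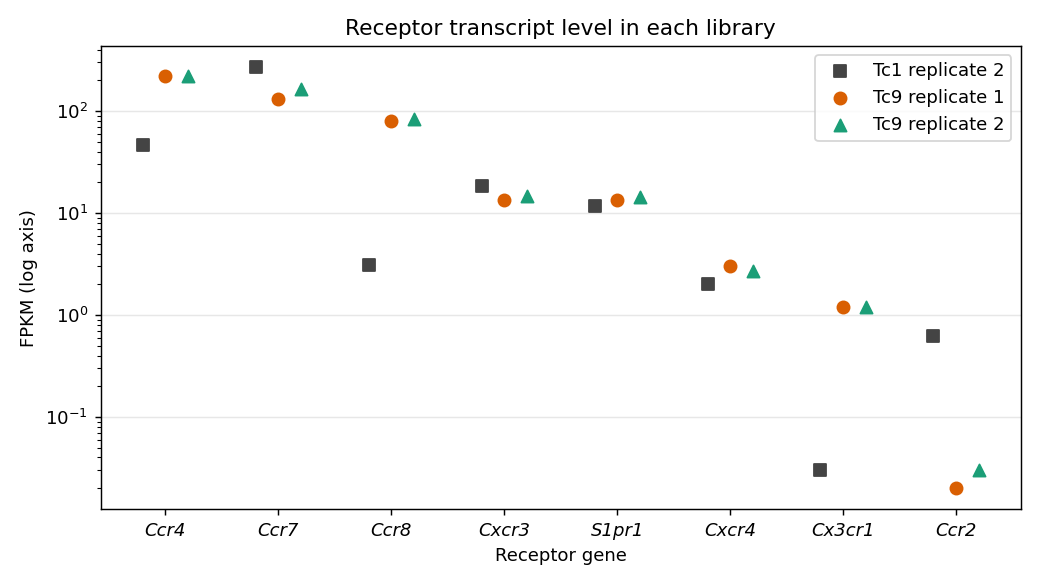
FPKM (log axis) of each receptor gene in Tc1 replicate 2 (squares), Tc9 replicate 1 (circles) and Tc9 replicate 2 (triangles), 1 point per library. *Ccr4*, *Ccr8* and *Cx3cr1* lie higher in both Tc9 libraries, with *Ccr8* at 80.4 and 83.6 against 3.07 FPKM, and *Ccr2* lies lower.

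*Ccr4* encodes the receptor for CCL17 and CCL22. It had 3968 expected counts in Tc1 replicate 2, 18121 in Tc9 replicate 1 and 17982 in Tc9 replicate 2, or 46.9, 220.0 and 220.4 FPKM. Both Tc9 libraries stood far above the Tc1 library and nearly level with each other (220.2 ± 0.255 FPKM, SD, n = 2). The log2 fold change was 2.19 (SE 0.23), a 4.55-fold difference, with an adjusted p of 0.00475 by edgeR's quasi-likelihood test. Its rise ranked 118 from the highest of the 2613 genes.

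*Ccr8* encodes the receptor for CCL1. It had 99 expected counts in Tc1 replicate 2 and 2540 and 2622 in the Tc9 libraries, or 3.07, 80.4 and 83.6 FPKM. The 2 Tc9 libraries were close to each other (82.0 ± 2.27 FPKM, SD, n = 2) and did not overlap with the Tc1 library. The log2 fold change was 4.70 (SE 0.28), a 26.1-fold difference, with an adjusted p of 0.00137 by edgeR. Its rise ranked 27 from the highest of the 2613 genes.

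*Cx3cr1* encodes the receptor for fractalkine, the ligand made from *Cx3cl1*, and marks effector CD8+ T cells and many monocytes. It had 3 expected counts in Tc1 replicate 2 and 134 and 132 in the Tc9 libraries, or 0.030, 1.19 and 1.19 FPKM. The Tc1 library lay at the smallest level the depth can show, and both Tc9 libraries lay well above it at a level that remained low beside those of *Ccr4* and *Ccr8*. The ratio was 42.6, with a 95% interval of 15.0 to 131 from the counts alone. The fitted log2 fold change was 5.41 (SE 0.47), with an adjusted p of 0.00276 by edgeR.

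*Ccr2* encodes the receptor for CCL2 and is also a gene of inflammatory monocytes. It had 65 expected counts in Tc1 replicate 2 and 4 in each Tc9 library, or 0.62, 0.020 and 0.030 FPKM. The Tc9 libraries were just above the floor of 3 counts, and the Tc1 library was above both. *Ccr2* fell by 3.98 on the log2 scale (SE 0.43), with an adjusted p of 0.00501 by edgeR, and was 15.8-fold lower in Tc9 cells, with an interval of 7.92 to 33.3 from the counts alone. The FPKM of *Ccr2* rests on lengths of 3394, 7053 and 4734 bases that differ between the libraries, so its counts are the safer measure. Reads that it could share with related receptor genes were assigned by the authors' estimate, so its counts are uncertain to that extent.

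These 4 calls were lost in edgeR's test with no filter on low counts, where the fold changes remained and the adjusted p of each was 0.203. All 4 passed at a minimum count of 30, with depth scaling alone, with limma on both log2(FPKM) scales and with DESeq2, whose adjusted p was 0.00202 for *Ccr2*, 1.42e-19 for *Ccr4*, 1.16e-57 for *Ccr8* and 1.01e-06 for *Cx3cr1*. Over 3 libraries with no filter edgeR called 0 of all genes, those of other lists named here included, with 598 at an unadjusted p under 0.05, while DESeq2 called 208 higher and 117 lower.

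The monocyte and macrophage genes among the markers are of interest for *Cx3cr1* and *Ccr2*. *Lyz2* had 0, 3 and 0 counts, *Csf1r* 2, 0 and 3, and *Adgre1* 1, 0 and 2, in Tc1 replicate 2, Tc9 replicate 1 and Tc9 replicate 2. The summed level of the 15 myeloid markers was 12.7, 17.5 and 21.1 CPM in the same order. Nearly all of it came from *Cd68*, at 221, 358 and 439 counts, and *Itgax*, at 154, 171 and 188. *Cd68* rose by 0.84 on the log2 scale (SE 0.15) over 4 libraries, with an adjusted p of 0.00295 by edgeR. The natural killer cell markers summed to 0.564, 0.0643 and 0.0324 CPM. Among B cell markers, *Cd79b* rose from 155 counts to 380 and 473 (1.46 on the log2 scale, SE 0.26, adjusted p = 0.0226 by edgeR). *Foxp3*, the factor of regulatory T cells, which are known for *Ccr4* and *Ccr8*, had 34.6 counts in Tc1 replicate 2 and 1592 in Tc9 replicate 2, the only libraries that cover it, while *Cd4* had 45 and 58. The part of these genes' cells in the receptor differences was not tested.

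The promoters of the 4 receptors that were called are shown because these genes moved most, and each is the 250 bases before a transcript start as RefSeq gives it for the GRCm38.p6 build. RefSeq's gene spans begin further upstream for *Ccr4* and *Ccr2*, so that their windows lie inside the span of the gene. They were searched on both strands for GATA (GATAA), STAT (TTCNNNGAA), STAT6 (TTC and GAA with 4 bases between), AP-1 (TGANTCA) and T-box (AGGTGT) letters, and matches are in capitals. The sequences run 5′ to 3′ along the gene's strand.
Ccr4, chr9:114496545-114496794, minus strand: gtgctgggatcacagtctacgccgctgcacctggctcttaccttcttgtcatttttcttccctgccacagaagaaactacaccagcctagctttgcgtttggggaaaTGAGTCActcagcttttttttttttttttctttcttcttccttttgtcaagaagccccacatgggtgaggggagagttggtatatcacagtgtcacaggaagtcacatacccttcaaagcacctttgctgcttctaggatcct
Ccr8, chr9:120091883-120092132, plus strand: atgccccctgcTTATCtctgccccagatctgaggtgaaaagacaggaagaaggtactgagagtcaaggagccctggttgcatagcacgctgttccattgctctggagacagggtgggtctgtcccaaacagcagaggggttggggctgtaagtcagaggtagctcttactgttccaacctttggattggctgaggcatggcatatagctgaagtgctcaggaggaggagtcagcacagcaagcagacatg
Cx3cr1, chr9:120068297-120068546, minus strand: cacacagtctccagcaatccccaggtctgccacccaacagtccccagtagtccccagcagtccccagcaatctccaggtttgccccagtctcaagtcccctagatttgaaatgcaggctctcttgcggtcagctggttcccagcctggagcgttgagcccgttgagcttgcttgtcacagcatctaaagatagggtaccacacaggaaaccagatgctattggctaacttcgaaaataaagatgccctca
Ccr2, chr9:124101933-124102182, plus strand: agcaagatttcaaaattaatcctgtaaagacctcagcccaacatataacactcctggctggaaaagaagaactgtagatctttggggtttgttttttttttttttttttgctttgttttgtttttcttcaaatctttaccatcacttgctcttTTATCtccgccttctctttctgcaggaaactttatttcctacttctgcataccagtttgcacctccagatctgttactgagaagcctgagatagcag

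The *Ccr4* promoter held 1 AP-1 match, at 143 to 137 bases before the start. The *Ccr8* promoter held 1 GATA match, at 239 to 235 bases before the start, and that of *Ccr2* held 1 at 97 to 93 bases, both as TTATC on the strand shown. The *Cx3cr1* window held none of the 5 motifs. Of the other receptors, *Cxcr4* had 1 GATA match and *Cxcr3* none. GATAA occurs in 22.6% of 32851 promoters of the same length and TGANTCA in 6.75%, so a match is a description of these letters only. The other 3 motifs, in 7.02% (STAT), 5.85% (STAT6) and 11.8% (T-box) of promoters, matched none of the 6 receptor promoters at hand.

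*Ccr7*, the receptor that brings T cells to lymph nodes, had the highest level in the Tc1 library. It had 15814 expected counts in Tc1 replicate 2, 7488 in Tc9 replicate 1 and 9298 in Tc9 replicate 2, or 270.3, 131.2 and 164.4 FPKM. The Tc9 libraries lay below the Tc1 library and differed from each other more than those of any other receptor. The log2 fold change was -0.91 (SE 0.23, 95% interval -1.47 to -0.36) with an unadjusted p of 0.00707 and an adjusted p of 0.0602 by edgeR, so it was not called. It did pass under a minimum count of 30 (adjusted p 0.00656 by edgeR), with depth scaling alone (0.00255), with DESeq2 (-0.96, 0.00114) and with limma on log2(FPKM + 1) (-0.88, 0.0362).

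The other 3 receptors were not called. *Cxcr3*, the receptor for the interferon-induced chemokines CXCL9, CXCL10 and CXCL11, had 860, 607 and 661 expected counts in Tc1 replicate 2, Tc9 replicate 1 and Tc9 replicate 2, or 18.4, 13.3 and 14.6 FPKM. Both Tc9 libraries lay below the Tc1 library, by a log2 fold change of -0.44 (SE 0.21, interval -0.94 to 0.06) and an adjusted p of 0.236 by edgeR. *Cxcr4*, the receptor for CXCL12, had 108, 158 and 141 counts, or 2.02, 3.03 and 2.72 FPKM. Both Tc9 libraries lay above, by 0.47 (SE 0.26, interval -0.16 to 1.10, adjusted p = 0.299 by edgeR). *S1pr1*, the receptor for exit from lymphoid tissue, had 1075, 1212 and 1271 counts, or 11.7, 13.5 and 14.3 FPKM. Both Tc9 libraries were slightly above, by 0.21 on the log2 scale (SE 0.21, interval -0.30 to 0.71, adjusted p = 0.556 by edgeR). These intervals reach 1.10 on the log2 scale, so that equal levels are not shown.

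**Figure D2:**
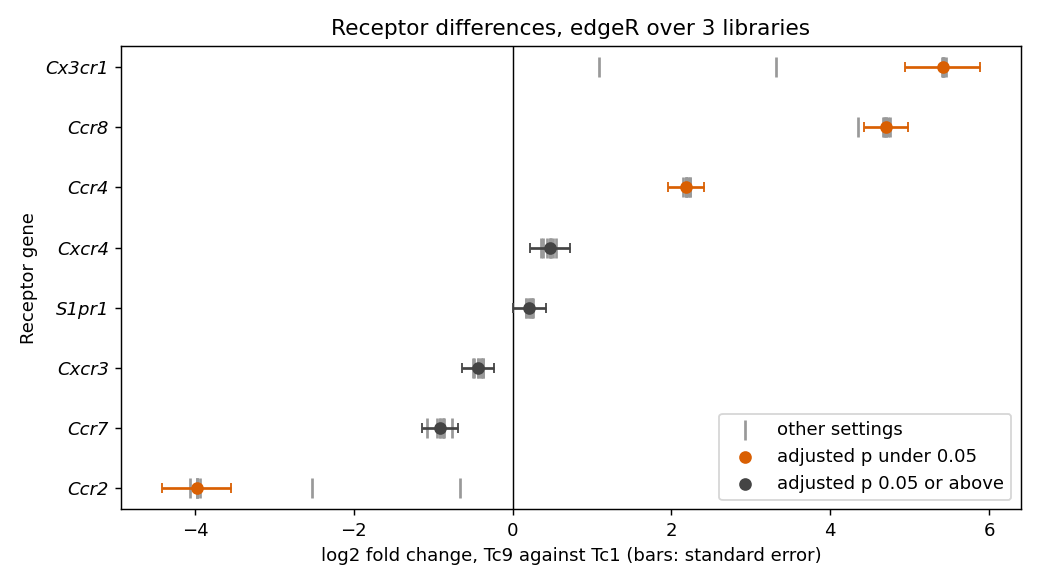
Log2 fold change of Tc9 against Tc1 for each receptor (points, with bars for the standard error) from edgeR over 3 libraries, and the values under other settings (grey ticks). *Ccr4*, *Ccr8*, *Cx3cr1* and *Ccr2* are past an adjusted p of 0.05, and the grey ticks of *Cx3cr1* at 1.09 and of *Ccr2* at -0.66 are from log2(FPKM + 1), on which low genes move little.

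The order of the receptor levels within a library differed between the groups. In Tc1 replicate 2 the order by FPKM was *Ccr7*, *Ccr4*, *Cxcr3*, *S1pr1*, *Ccr8*, *Cxcr4*, *Ccr2* and *Cx3cr1*. In both Tc9 libraries *Ccr4* came first, then *Ccr7* and *Ccr8*. *S1pr1* and *Cxcr3* came next at close levels, 13.5 and 13.3 FPKM in Tc9 replicate 1 and 14.3 and 14.6 in Tc9 replicate 2, so that they changed places between the replicates. *Cxcr4*, *Cx3cr1* and *Ccr2* came last. The summed FPKM of the 8 receptors was 353.0 in the Tc1 library and 462.6 and 501.2 in the Tc9 libraries.

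*Ccr7* was 5.76 times as high as *Ccr4* in FPKM in the Tc1 library, whereas *Ccr4* was 1.68 and 1.34 times as high as *Ccr7* in the Tc9 libraries. *Cxcr3* stood 5.99 times above *Ccr8* in the Tc1 library, and *Ccr8* stood 6.05 and 5.73 times above *Cxcr3* in the Tc9 libraries. As a share of the summed receptor FPKM, *Ccr7* made up 76.6% in Tc1 replicate 2 and 28.4% and 32.8% in the Tc9 libraries. *Ccr4* made up 13.3%, 47.6% and 44.0%, and *Ccr8* 0.870%, 17.4% and 16.7%, in the same order. These shares are a description, since *Ccr7* was not called by the test.

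**Figure D3:**
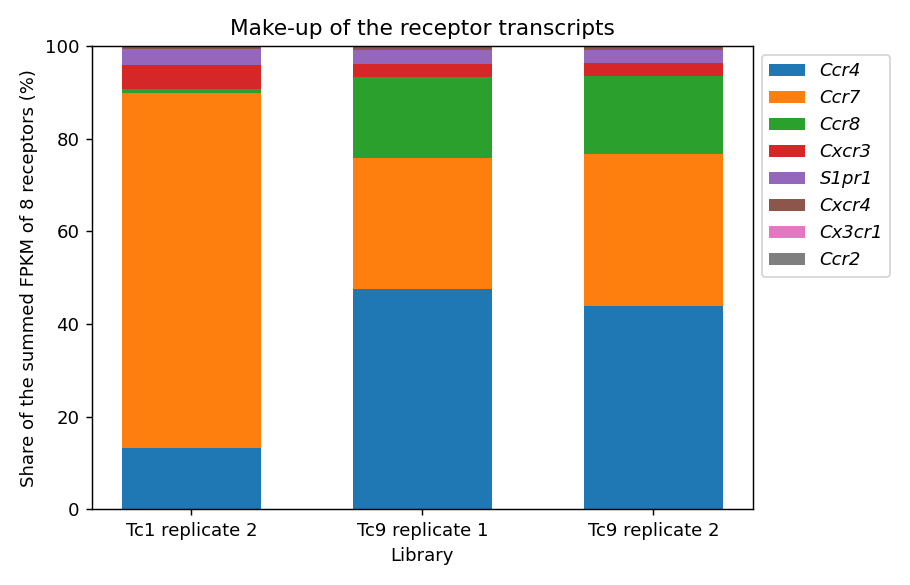
Share of the summed FPKM of the 8 receptors (percent) taken by each receptor gene, with 1 bar per library. *Ccr7* takes 76.6% in the Tc1 library, and *Ccr4* takes 47.6% and 44.0% in the Tc9 libraries, where *Ccr8* takes 17.4% and 16.7%.

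Among all genes tested, the called receptors lay far out in fold change at very different levels of expression. *Ccr4* was the most abundant of the 4, and *Ccr8* was intermediate. *Cx3cr1* ranked 23 from the highest, and *Ccr2* ranked 6 from the lowest of the 2613 genes. *Ccr7*, at the high end of expression, ranked 147 from the lowest.

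**Figure D4:**
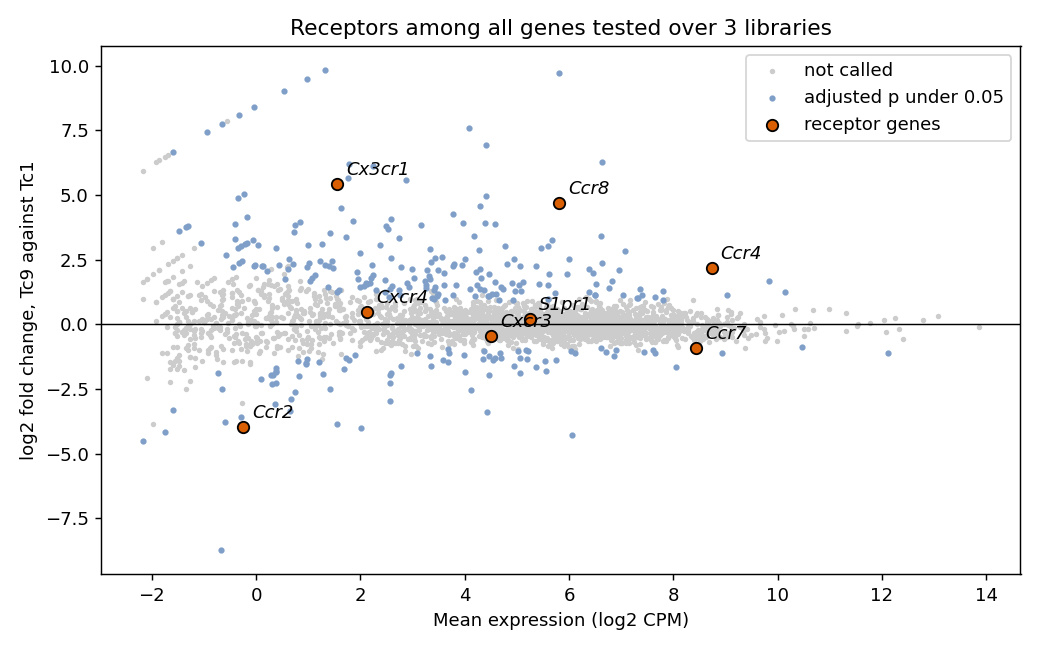
Log2 fold change of Tc9 against Tc1 plotted against mean expression (log2 CPM) for the 2613 genes tested over 3 libraries. Grey points were not called, blue points passed an adjusted p of 0.05 (197 higher and 84 lower), and the 8 receptor genes are outlined, *Ccr8* at 4.70 and *Ccr2* at -3.98.

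The receptor genes were located in RefSeq's GRCm38.p6. *Cx3cr1* (chr9:120048683-120068296, minus strand) and *Ccr8* (chr9:120092133-120094906, plus strand) are neighbours 23.8 kb apart with no gene between them. Both rose in Tc9 cells. A long noncoding gene, *Gm33858*, overlaps *Cx3cr1* and was listed in none of the tables. *Rpsa*, the next tested gene beyond *Ccr8*, had 136251, 144150 and 175561 expected counts in Tc1 replicate 2, Tc9 replicate 1 and Tc9 replicate 2, a log2 fold change of 0.23 (SE 0.19) and an adjusted p of 0.479 by edgeR. *Ccr2* lies on the same chromosome (chr9:124101918-124109140, plus strand), 4.01 Mb further on. *Ccr4* is at chr9:114490316-114505476, minus strand. *Ccr2*, *Ccr4*, *Ccr8*, *Cx3cr1* and *S1pr1* each have their coding sequence in 1 exon, *Cxcr3* and *Cxcr4* in 2 and *Ccr7* in 3.

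*Ccr2* lies in a cluster of chemokine receptor genes. In Tc1 replicate 2, Tc9 replicate 1 and Tc9 replicate 2, *Ccr1* had 8, 1 and 0 counts, *Ccr3* 3, 1 and 0 and *Ccr1l1* 1, 0 and 0. The counts of these 3 genes, like those of *Ccr2*, were highest in the Tc1 library, but those of *Ccr1*, *Ccr3* and *Ccr1l1* were too low to be tested.

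**Figure D5:**
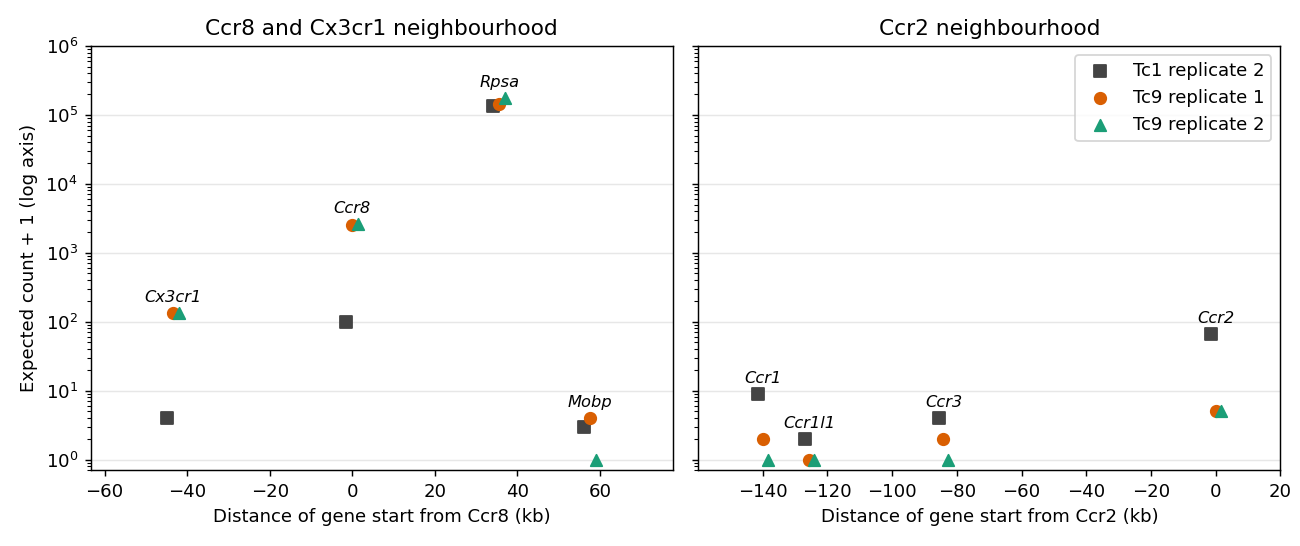
Expected count + 1 (log axis) of some genes beside *Ccr8* and *Cx3cr1* (left) and beside *Ccr2* (right), by distance of the gene start in kb, in Tc1 replicate 2, Tc9 replicate 1 and Tc9 replicate 2. *Ccr8* and *Cx3cr1* lie higher in both Tc9 libraries while *Rpsa* differs little, and *Ccr2* (65 against 4 and 4 counts) lies lower.

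Other chemokine receptors were set beside these genes. *Cxcr5*, the receptor for CXCL13 that leads cells to B cell follicles, stood at 472 and 390 counts in Tc1 replicates 1 and 2 but at 63 and 99 in Tc9 replicates 1 and 2. It fell by 2.41 on the log2 scale (SE 0.21), with an adjusted p of 3.19e-05 by edgeR over 4 libraries, in which 34.1% of genes were called (17.4% higher and 16.7% lower). *Ccr9*, the gut homing receptor, had 8 counts in the Tc1 library and 46 and 32 in the Tc9 libraries. Its log2 fold change of 2.27 (SE 0.52) had an adjusted p of 0.0484 by edgeR, and the call did not hold without the filter or with DESeq2 or limma. *Ccr6* was not called, at 14 and 18 counts in Tc1 cells against 11 and 4 in Tc9 cells. *Ccr10* was at 0 in all 3 libraries that cover it. *Cxcr6*, the receptor for CXCL16, was covered in Tc9 replicate 2 alone, at 722 counts.

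The ligands of these receptors were mostly covered in the replicate 2 libraries alone, where there is no replicate. Of 35 ligand genes, 3 were tested, all over 3 libraries, where 3.21% of all genes fell and 10.8% were called either way. Of these, 2 fell and 1 (*Mif*) did not pass. *Cxcl10*, a ligand of CXCR3, had 238 counts in the Tc1 library and 21 and 12 in the Tc9 libraries. It fell by 3.84 on the log2 scale (SE 0.34), with an adjusted p of 0.00295 by edgeR. *Xcl1* had 1367, 394 and 313 counts and fell by 1.95 (SE 0.23, adjusted p = 0.00643 by edgeR). Between the replicate 2 libraries *Ccl3*, *Ccl4* and *Ccl5*, inflammatory chemokines, had 830, 245 and 1054 counts in Tc1 cells and 53, 44 and 124 in Tc9 cells. Their log2 ratios of -3.92, -2.42 and -3.07 compare 1 library with 1, and 4.95% of the 6225 genes with 10 or more counts were more than 2-fold lower. *Ccl1*, the ligand of CCR8, had 1 and 14 counts, a log2 ratio of 2.42 with an interval of 1.24 to 6.38 from the counts alone, which was 3.27 at a prior count of 0.5 and 1.04 on log2(FPKM + 1). Between these libraries 10.9% of the 6225 genes were more than 2-fold higher in Tc9 cells. *Ccl22*, a ligand of CCR4, had 4 and 5 counts, and *Cx3cl1* had 10 and 5.

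Of the 14 genes for sphingosine-1-phosphate receptors and handling other than *S1pr1*, 3 were tested, and 0 passed by edgeR, DESeq2 or limma, with 0 at an unadjusted p under 0.05 by edgeR. These were tested over 3 libraries, where edgeR called 10.8% of all genes and 26.7% had an unadjusted p under 0.05. *S1pr4* had 623, 762 and 1063 counts (log2 fold change 0.55, SE 0.27, adjusted p = 0.258 by edgeR). Of 22 atypical and other chemoattractant receptors, 3 were tested, and 0 passed by edgeR, DESeq2 or limma, with 1 (*Gpr65*) at an unadjusted p under 0.05 by edgeR. Of these, 2 were tested over 3 libraries and 1 over 4 libraries, where 34.1% of all genes were called. With so few genes tested, the absence of calls is no result about either list. Genes that act beneath the receptors, such as G protein subunits, arrestins and regulators of signalling, numbered 47, of which 19 were tested, 2 rose, 1 fell and 16 did not pass. The 3 called were among 8 tested over 4 libraries, where 34.1% of all genes were called. The other 11 were tested over 3 libraries, where 10.8% of all genes were called, so these counts are near those of all genes and are no result about the list. *Arrb1*, an arrestin that desensitizes chemokine receptors, stood at 1519 and 1461 counts in Tc1 cells and at 4364 and 4886 in Tc9 cells. It rose by 1.64 on the log2 scale (SE 0.12, adjusted p = 8.66e-06 by edgeR over 4 libraries). *Ric8a*, a chaperone of G protein α subunits, had a log2 fold change of 0.36 (SE 0.11, adjusted p = 0.0322 by edgeR), a call that was lost with no filter (adjusted p = 0.0627) and without Tc1 replicate 1 (0.409) or Tc1 replicate 2 (0.383). *Pik3r6*, a regulatory subunit of the kinase that G protein βγ subunits activate, fell by 1.47 (SE 0.23, adjusted p = 0.00122 by edgeR).

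Adhesion molecules and transcription factors of homing numbered 33, of which 23 were tested, 5 rose, 3 fell and 15 did not pass. Over 3 libraries 5 of 16 rose and 1 fell, against 7.54% and 3.21% of all genes, and over 4 libraries 2 of 7 fell, against 16.7% of all genes. *Itgae*, the αE integrin that binds E-cadherin, had 59 counts in the Tc1 library and 4599 and 4619 in the Tc9 libraries. Its log2 fold change was 6.29 (SE 0.31, adjusted p = 0.000945 by edgeR). *Gata3*, the factor of type 2 cells, had 829, 5037 and 6839 counts (2.84, SE 0.31, adjusted p = 0.00501 by edgeR). *Klf3* rose as well (127, 509 and 504 counts, SE of the log2 fold change 0.24, adjusted p = 0.00746 by edgeR), as did *Id3* and *Hif1a*. *Prdm1*, which drives effector differentiation, went from 336 and 359 counts in Tc1 cells to 89 and 108 in Tc9 cells, and fell by 1.81 (SE 0.17, adjusted p = 3.96e-05 by edgeR).

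*Cd69*, whose protein holds S1PR1 off the cell surface, went from 1232 and 1108 counts in Tc1 cells to 511 and 449 in Tc9 cells. It fell by 1.28 (SE 0.13, adjusted p = 6.23e-05 by edgeR), beside an *S1pr1* transcript that was not called. *Itga4*, an integrin subunit for entry into inflamed tissue, fell by 1.12 (SE 0.20, adjusted p = 0.0226 by edgeR). *Klf2*, the factor that drives *S1pr1*, had 88, 120 and 121 counts and was not called (0.45, SE 0.26, adjusted p = 0.319 by edgeR).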

How the data were processed

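RNA-Seq of sorted tumor-infiltrating Tc1 and Tc9 cells gave 2 libraries per group, grouped by the sample labels. The authors deposited expected counts per gene, not normalized, and FPKM values scaled by gene length and library size. The build is mm10 per the submitters' processing notes, and the aligner and counting program are not given in the sources used here. Nothing at hand says that the pools are independent, so p-values measure the spread between these libraries, which may be technical.

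The tables used here ended at different gene identifiers, although the design had taken each to hold all genes. Where a table reached a gene's identifier without listing it, the count was set to 0. Depth was the summed count of Tc9 replicate 2, and for the other libraries that sum scaled by their median ratio of count to FPKM (genes with 500 counts or more and the same length). Rounded expected counts were tested, two-sided, with edgeR 4.0.16 in R 4.3.3 (TMM factors of the genes covered by 4 libraries, filterByExpr at a minimum count of 10, quasi-likelihood test, Benjamini-Hochberg adjustment over all genes of the fit). Standard errors are the log2 fold change divided by the root of F. The script was tested on simulated data. Alternatives were no filter, a minimum count of 30, DESeq2 1.42.0, limma 3.58.1 on log2(FPKM + 1) and log2(FPKM + 0.1), depth scaling alone, each library left out and a replicate block. Intervals from counts are Wilson intervals at 95%, and these and the floor of 3 counts cover counting error only. Log2 ratios of the replicate 2 libraries used a prior count of 2.

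The 8 receptors and the gene lists were chosen with earlier results of these data known. All 8 receptors are named, with the called genes of the other lists (at most the 6 with the largest change per list) and a few ligands and partners whatever their values. The marker genes, *Id3*, *Hif1a*, *Ccr6*, *Ccr10*, *Gpr65*, *Mif*, *Cx3cl1*, *Xcr1* and the genes beside *Ccr2*, *Ccr4* and *Ccr8* were named after their values were seen. Values of a few listed genes are left out. Likeness of pattern to other genes was not computed, since only 3 libraries cover the receptors. Positions and promoters came from RefSeq and exons from GENCODE, both on GRCm38.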

Additional observations from a re-analysis of the deposited data

How the results depend on the processing

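The direction of all 8 receptors held under every setting run. With no filter on low counts, edgeR over 3 libraries called 0 genes higher and 0 lower, with 598 at an unadjusted p under 0.05, while DESeq2 called 208 and 117 and limma on log2(FPKM + 1) called 249 and 112. The values of *Ccr4* (2.19), *Ccr8* (4.70), *Cx3cr1* (5.41) and *Ccr2* (-3.98) then stayed, with adjusted p = 0.203 (they passed in each other test run), and the other lists had 1 gene higher and 4 lower, against 8 and 8. The 3-library counts were 305 higher and 154 lower at a minimum count of 30 and 371 and 163 with depth scaling alone, against 197 and 84. *Ccr7* passed at a minimum count of 30 (-0.91), with DESeq2 (-0.96), with limma on log2(FPKM + 1) (-0.88) and with depth alone (-0.87). The cause was not tested.

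Over 4 libraries, 130 genes were higher and 110 lower with no filter, against 224 and 214. Leaving out 1 library gave 72 to 405 higher and 39 to 405 lower: 72 and 39 without Tc1 replicate 1, 79 and 52 without Tc1 replicate 2, 405 and 405 without Tc9 replicate 1, and 343 and 350 without Tc9 replicate 2. With either Tc9 library left out, which leaves values with no test, *Ccr4* was 2.18 to 2.19, *Ccr8* 4.68 to 4.73, *Cx3cr1* 5.40 to 5.42, *Ccr2* -3.98 and *Ccr7* -1.08 to -0.77. Leaving out the 1 Tc1 library gave no value.

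Libraries with the same number did not deviate together (correlation of deviations -0.0645). The replicate block over 4 libraries called 231 genes higher and 213 lower, and 406 of these were called without the block too. The call of *Ric8a* was lost under the block (adjusted p = 0.0629). No paired analysis was possible for the receptors because only 1 Tc1 library covers them.

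Ratios of the replicate 2 libraries under a prior count of 0.5 and on log2(FPKM + 1) were chosen after seeing the data and kept their direction, with *Ccl1* at 3.27 and 1.04 against 2.42. Depth limits *Cx3cr1* in the Tc1 library and *Ccr2* in the Tc9 libraries, which lie at or near 3 counts.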

Other observations

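The genes around *Ccr4* on chromosome 9 were also looked at, within 250 kb. *Glb1*, the lysosomal β-galactosidase, went from 1365 and 1368 expected counts in Tc1 cells to 3106 and 3414 in Tc9 cells, and rose by 1.26 on the log2 scale (SE 0.12, adjusted p = 3.83e-05 by edgeR over 4 libraries). *Tmppe*, whose span overlaps that of *Glb1*, so that its counts are uncertain, went from 1212 and 1188 counts to 2199 and 2082 (0.84, SE 0.11, adjusted p = 0.000471 by edgeR). *Bcl2a1c*, a member of the BCL2 family with near-identical copies, had 30 and 31.9 counts against 14 and 9 (-1.42, SE 0.35, adjusted p = 0.0127 by edgeR). Over 4 libraries 34.1% of all genes were called, and these genes were named after their values were seen.

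Near *Ccr8*, *Csrnp1* had 1337 counts in Tc1 replicate 2 and 2037 in Tc9 replicate 2, and *Slc25a38* had 567 and 818. These compare 1 library with 1. *Xcr1*, the receptor for the product of *Xcl1*, had 15.1 counts in Tc1 replicate 2 and 33 in Tc9 replicate 2.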
